A study of Mus musculus with 29 samples.

Results

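The MHC class II genes were followed through RNA-seq libraries of mouse skin after deletion of Dlx3 in the adult (P42 to P46). Dlx3 encodes a homeobox protein that regulates gene expression in suprabasal keratinocytes and in the hair follicle. The 8 members were taken by gene symbol from the deposited tables: H2-Aa, H2-Ab1 and H2-Eb1 (chains of the presenting molecule), H2-DMa, H2-DMb1 and H2-DMb2 (chains of the peptide-exchange factor H2-DM), Cd74 (the invariant chain) and Ciita (the class II transactivator). All 8 were present in each of the 3 tables, which held 24543 genes for day 3 epidermis, 24453 for day 3 dermis and 24081 for the week 1 tissues.

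The deletion used a tamoxifen-inducible Cre driven by the keratin 14 promoter, which is active in basal keratinocytes and hair follicle epithelium and not in leukocytes. All 29 samples came after tamoxifen, in mice of mixed background: icKO denotes the inducible knockout and WT its control. The labels do not say which alleles the controls carried. Day 3 epidermis comprised 4 WT and 4 icKO libraries given vehicle, and 3 WT and 4 icKO libraries given a STAT3 inhibitor (STAT3i), a compound that the labels do not name. STAT3 is a transcription factor downstream of cytokine receptors. Day 3 dermis comprised 3 WT and 3 icKO libraries. At week 1 there were 2 WT and 2 icKO libraries of epidermis after topical tamoxifen, and 2 WT and 2 icKO libraries of dermis after intraperitoneal tamoxifen. For 2 of the week 1 epidermis samples the genotype field contradicted the sample title, and the titles, with which the table headers went, were followed. Letters a to d name the libraries within a group and pair nothing across groups.

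MHC class II molecules are heterodimers of an alpha and a beta chain that display peptides from endocytosed proteins to CD4+ T cells. In the endoplasmic reticulum the invariant chain fills the peptide groove, proteases such as cathepsin S later trim it, and H2-DM then exchanges the remaining fragment for other peptides, a step that H2-O restrains. Constitutive expression is limited to professional antigen-presenting cells, which in skin are the Langerhans cells of the epidermis and the dendritic cells and macrophages of the dermis, whereas keratinocytes and fibroblasts acquire it under interferon gamma. The whole gene set is switched on by Ciita, a coactivator without a DNA-binding domain of its own that docks on the RFX complex, CREB and NF-Y at a conserved promoter module of W, X and Y boxes.

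Parts of that module are shown for the 4 members whose promoters held them, because it is the sequence that the common activator uses. The W box was not searched. Promoters of 300 bases, from 250 before to 50 after the annotated start, were taken from RefSeq (GRCm38.p6) and found for 5 of the 8 members. H2-Ab1, Cd74 and Ciita had no entry. The letters searched on both strands, chosen after the promoters had been read, were TGATTGG for the core of the Y box, AACNGATGA for part of the X box and TGACGTCA for the X2 part that CREB binds. The 3 motifs do not overlap one another in the stretches below, which run 5′ to 3′ on the strand of the gene with the motifs in capitals.
H2-Aa: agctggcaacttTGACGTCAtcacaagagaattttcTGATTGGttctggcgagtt
H2-Eb1: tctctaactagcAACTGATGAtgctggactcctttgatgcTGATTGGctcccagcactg
H2-DMb1: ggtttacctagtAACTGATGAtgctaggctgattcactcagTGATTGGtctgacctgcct
H2-DMb2: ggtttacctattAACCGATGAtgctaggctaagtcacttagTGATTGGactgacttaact
These stretches lie at chr17:34287855-34287909 (minus strand) for H2-Aa, chr17:34305766-34305824 (plus strand) for H2-Eb1, chr17:34153087-34153146 (plus strand) for H2-DMb1 and chr17:34145116-34145175 (plus strand) for H2-DMb2. Between the X motif and the Y motif there were 16 bases in H2-Aa, 19 in H2-Eb1 and 20 in H2-DMb1 and H2-DMb2. The first base of the Y motif stood 50 bases upstream of the annotated start in H2-Aa, 61 in H2-Eb1, 63 in H2-DMb1 and 92 in H2-DMb2. Among 32851 promoter windows of this length, 7.82% held the Y core, 0.648% the X part, 1.79% the X2 part, and 70 (0.213%) the Y core together with either X motif. H2-Oa and H2-Ob, the chains of H2-O, held the Y core alone, and the 2 promoters listed for H2-DMa held none of the 3 motifs. A match is a description of the letters in these windows and not evidence of binding.

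Most members lie in 1 cluster on mouse chromosome 17 (mm10, GENCODE M21). H2-DMa spans 34119541 to 34139101, H2-DMb2 34143307 to 34151555, H2-DMb1 34153072 to 34160230 and H2-Ab1 34257689 to 34269419, all on the plus strand. H2-Aa spans 34282744 to 34287823 on the minus strand, and H2-Eb1 34305867 to 34316674 on the plus strand. Ciita lies on chromosome 16, from 10480059 to 10528418, and Cd74 on chromosome 18, from 60803848 to 60812652, both on the plus strand. H2-DMb1 and H2-DMb2 are near copies, with 95.9% identity over 783 aligned coding bases, so the division of reads between them is uncertain. The next closest pair of class II chain genes, H2-Ab1 and H2-Eb1, shared 73.9%.

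Recorded depth per library was 48942701 to 70291550 alignments in day 3 epidermis, 10137237 to 37252138 alignments in day 3 dermis and 37271189 to 57296317 reads at week 1. Dlx3 went against the labels in places. In day 3 epidermis the library labelled WT b held 0.95 RPKM of Dlx3, below all 8 icKO libraries of that table, which held 1.01 to 2.22. In day 3 dermis Dlx3 was at 64.3 and 65.9 RPKM in the libraries labelled icKO a and b, against 3.58, 20.5 and 2.19 in those labelled WT, so directions in that tissue are between labelled groups. The sex transcripts Xist and Ddx3y, read at 1 RPKM, were split unevenly. With the inhibitor all 3 WT libraries carried Ddx3y and all 4 icKO libraries Xist, so that sex and genotype cannot be told apart there. With vehicle 3 WT libraries carried Ddx3y and 1, WT c, carried Xist, while all 4 icKO libraries carried Xist. Sex was thus also uneven between the vehicle genotypes, and between WT epidermis with and without inhibitor. Library icKO c of day 3 epidermis carried both transcripts. In day 3 dermis the library labelled WT c carried Ddx3y and all others Xist. At week 1 WT dermis a carried Xist and all other libraries Ddx3y. A sex term was fitted in day 3 epidermis only, so the part of sex in the other comparisons was not tested. Whether the libraries of a group came from separate animals is not stated in the labels, so p-values measure the spread between libraries. In day 3 epidermis some libraries were very alike by Pearson correlation of log2(RPKM + 1). Vehicle icKO a and b had 0.998, against 0.978 to 0.988 in the other pairs of that group. With inhibitor icKO a and d had 0.998, against 0.985 to 0.988 in the others, and the 3 WT libraries had 0.993 to 0.997. In vehicle WT the correlations were 0.942 to 0.982. Within groups of 4 the closest pair was also averaged as an alternative. The labelled epidermis also held muscle and dermal transcripts at day 3: the 5 skeletal muscle genes summed to 4426 to 12329 RPKM and the 6 fibroblast genes to 1878 to 13248 RPKM, against 8.74 to 8.84 and 63.2 to 90.3 RPKM in week 1 WT epidermis.

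Cd74, H2-Aa and H2-Ab1 were the most abundant of the 8 genes. Levels are RPKM, read counts scaled for transcript length and library size, which allows genes to be compared per length. In 27 of 29 libraries Cd74 stood highest, H2-Aa next and H2-Ab1 after it. The exceptions were both icKO libraries of week 1 dermis, where H2-Aa was above Cd74. Ciita was the lowest of the 8 in all 29 libraries. H2-Eb1, the beta chain of the second classical heterodimer, was far below H2-Aa in all 21 day 3 libraries. In day 3 epidermis its RPKM was 1.29% to 2.09% of that of H2-Aa, and in day 3 dermis 1.82% to 2.20%, whereas in week 1 WT epidermis it was 30.5% and 30.7%. The tables were normalized separately, and whether these mice differed in H2 haplotype was not tested.

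At day 3 the inhibitor-treated WT epidermis stood apart. Every one of the 8 class II genes was higher there than in vehicle-treated WT epidermis, by 0.72 to 1.62 on the log2 scale, and the icKO epidermis with the same inhibitor stayed near the vehicle levels. With vehicle, no class II gene passed the threshold between icKO and WT. In bulk tissue, fewer cells of a type and less RNA per cell cannot be told apart, here and in all comparisons that follow.

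The alpha chain gene H2-Aa illustrates the pattern. Its RPKM was 462, 756, 333 and 356 in WT libraries a to d and 600, 604, 505 and 510 in the icKO libraries. With the inhibitor it was 1164, 1096 and 1179 in WT and 642, 512, 477 and 629 in icKO. The 3 inhibitor-treated WT libraries lay above all others, and the 4 vehicle WT libraries spanned the whole icKO range, with the library labelled WT b at the top. H2-Ab1, which encodes the beta chain paired with H2-Aa, was at 337, 611, 254 and 263 RPKM in WT and at 485, 471, 393 and 404 in icKO. With the inhibitor it was at 824, 729 and 778 in WT and at 475, 353, 394 and 487 in icKO, again with no overlap between the genotypes. H2-Eb1 followed the same order at a much lower level. Its values were 7.76, 12.5, 4.31 and 5.19 RPKM in WT, 11.3, 11.7, 8.26 and 10.6 in icKO, 19.2, 14.2 and 16.3 in WT with STAT3i, and 11.4, 8.29, 8.48 and 11.9 in icKO with STAT3i.

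Cd74, the invariant chain that escorts new class II dimers to the endosome, was at 830, 1454, 560 and 648 RPKM in vehicle WT and at 1140, 1130, 968 and 986 in vehicle icKO. With the inhibitor it reached 2790, 2231 and 2506 RPKM in WT, against 1322, 1076, 894 and 1355 in icKO. The inhibitor-treated WT libraries were the highest 3 of this table, with 1454 RPKM in the next, the library labelled WT b. Ciita was at 3.59, 4.27, 2.40 and 2.95 RPKM in vehicle WT and at 5.18, 5.32, 4.60 and 4.53 in vehicle icKO. With the inhibitor Ciita was at 8.88, 8.16 and 8.50 in WT and at 6.92, 4.05, 3.82 and 7.33 in icKO. The lowest vehicle icKO library (4.53) and the highest vehicle WT library (4.27) of Ciita were close, and with limma Ciita did not pass between these groups (adjusted p = 0.0850).

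The H2-DM chains lay below H2-Aa and H2-Ab1 and above H2-Eb1 and Ciita in day 3 epidermis. H2-DMa, the alpha chain, was at 21.1, 40.5, 18.7 and 19.1 RPKM in vehicle WT and at 38.1, 37.1, 29.6 and 29.2 in vehicle icKO, with 56.9, 54.5 and 54.4 in WT and 41.4, 29.3, 34.9 and 42.0 in icKO under STAT3i. The beta chain gene H2-DMb1 was at 25.4, 39.8, 21.5 and 19.1 RPKM in vehicle WT and 39.9, 41.3, 30.2 and 33.4 in vehicle icKO, with 43.5, 41.5 and 42.5 in WT and 36.1, 26.3, 30.2 and 39.1 in icKO under STAT3i. For its near copy H2-DMb2 the values were 27.3, 42.7, 21.9 and 21.6 RPKM, 50.6, 46.8, 34.0 and 40.1, 61.2, 58.5 and 61.0, and 47.2, 31.2, 32.0 and 45.7 in the same order of groups. The library labelled WT b was the highest vehicle WT library for all 8 genes.

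**Figure D1:**
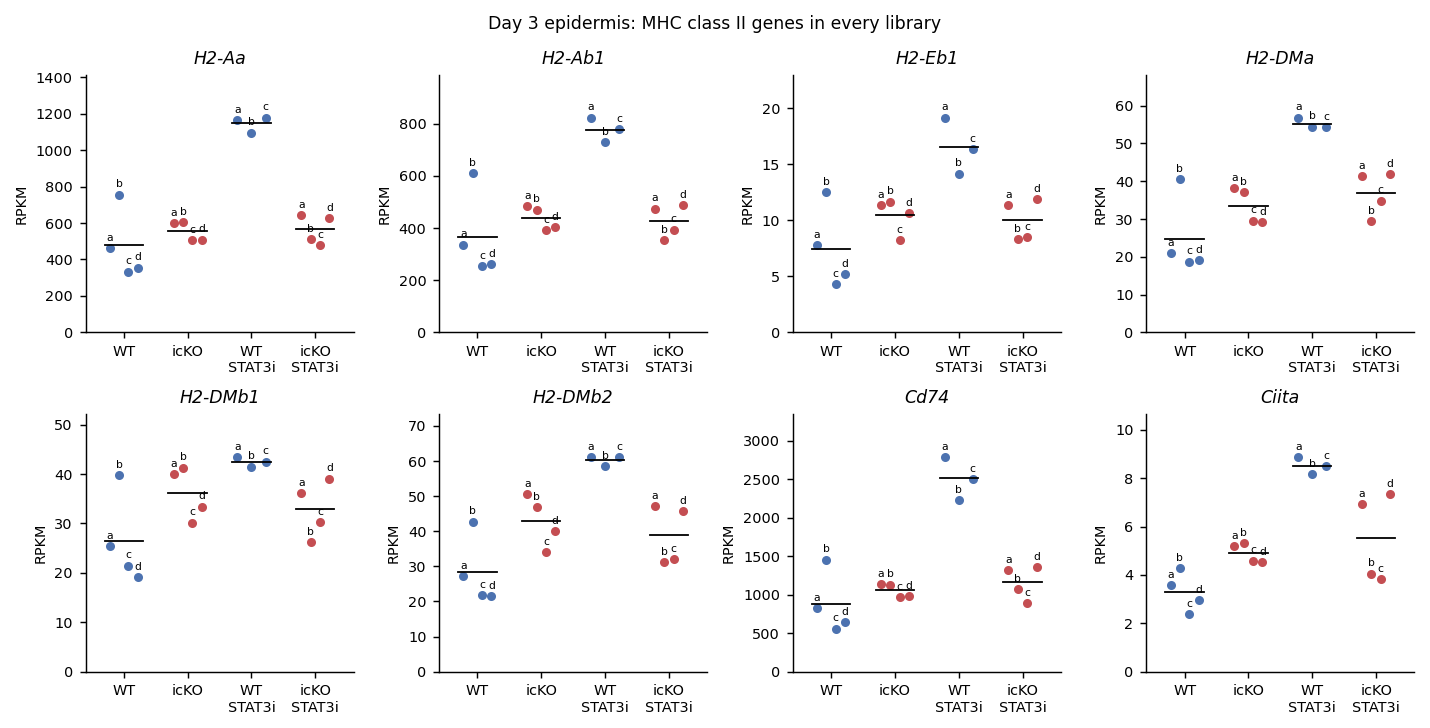
RPKM (y axis, from 0) of the 8 MHC class II genes in the 15 day 3 epidermis libraries, 1 panel per gene; points are libraries with their letters, blue for WT and red for icKO, and the line is the group mean. The 3 WT libraries with STAT3i sit above all the other libraries for H2-Aa, at 1096 to 1179 RPKM, and the library labelled WT b is the highest vehicle WT point in every panel.

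Tests were made with limma on log2(RPKM + 1) over all genes that reached 1 RPKM, with Benjamini-Hochberg adjustment over all of them and a threshold of 0.05; changes below are on that scale with standard errors, and all 8 class II genes were tested in every comparison. Between icKO and WT with vehicle, 0 of 8 passed, where 12.8% of the 13095 tested genes passed in either direction. All 8 estimates were above 0, with a median of 0.48 against 0.036 over all tested genes, and 5 of the 8 had an unadjusted limma p below 0.05, as did 30.4% of all tested genes. The estimate was 0.29 ± 0.21 for H2-Aa (95% interval -0.15 to 0.73, adjusted p = 0.347), 0.37 ± 0.24 for Cd74 (-0.14 to 0.88, adjusted p = 0.302) and 0.47 ± 0.17 for Ciita (0.10 to 0.85, adjusted p = 0.0850). The intervals for H2-Aa and Cd74 include 0 and extend to 0.73 and 0.88, so a rise of that size would be compatible with these libraries. The call depended on 1 library. Without the library labelled WT b, whose Dlx3 was low, all 8 passed as higher in icKO, with a median of 0.67. In that fit 23.3% of all tested genes passed in either direction.

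With the inhibitor the genotypes parted in the other direction. 5 of the 8 genes fell in icKO relative to WT, where 14.1% of the 13241 tested genes were called lower. The median of the 8 was -0.66, against 0.015 over all tested genes. Cd74 fell by 1.12 ± 0.26 (adjusted p = 0.00492) and H2-Aa fell by 1.03 ± 0.22 (adjusted p = 0.00347). H2-Ab1 fell by 0.87 ± 0.24, H2-DMb2 fell by 0.64 ± 0.22 and Ciita fell by 0.59 ± 0.19, with adjusted p of 0.0126, 0.0362 and 0.0267. The estimates for H2-Eb1 (-0.68 ± 0.25, adjusted p = 0.0516), H2-DMa (-0.58 ± 0.22, adjusted p = 0.0520) and H2-DMb1 (-0.37 ± 0.20, adjusted p = 0.166) did not pass. In all 8 genes the icKO libraries lay below the WT libraries without overlap, which 24.9% of tested genes did in that direction. Markers of other cell types moved in the same comparison: 4 of 6 fibroblast genes fell, with sums of 8755 to 10577 RPKM in WT and 2598 to 3799 in icKO, and 4 of 6 keratinocyte genes rose, with sums of 5361 to 5772 and 10978 to 14811. Their part in the result was not tested. With a term for sex, which follows genotype within these groups, 0 of 8 passed. Leaving out WT a, b or c or icKO b or c, each with inhibitor, left 3.

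Among WT libraries the inhibitor comparison gave the clearest change, and all 8 genes rose, where 10.9% of the 13211 tested genes were called higher. The median change was 1.17, against -0.0051 over all tested genes. Cd74 rose by 1.62 ± 0.26 (adjusted p = 0.00359), H2-Aa by 1.34 ± 0.22 (adjusted p = 0.00384) and Ciita by 1.16 ± 0.19 (adjusted p = 0.00368). H2-DMa, H2-Ab1, H2-Eb1 and H2-DMb2 rose by 1.2, 1.18, 1.14 and 1.11, and H2-DMb1 rose least, by 0.72 ± 0.20 (adjusted p = 0.0267). The groups did not overlap for any of the 8, as for 14.8% of tested genes in that direction. The number of calls fell to 1 when the spread was estimated from these 2 groups only.

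Among icKO libraries the inhibitor moved none of the 8 past the limma threshold, 5.56% of the 13074 tested genes passing in either direction. The median estimate was -0.012, and 0 of the 8 had an unadjusted p below 0.05, which 25% of all tested genes had. The 95% intervals were -0.42 to 0.46 for H2-Aa, -0.39 to 0.63 for Cd74 and -0.27 to 0.47 for Ciita, and for each of these 3 genes the WT estimate lay above its interval. The difference itself, the genotype by inhibitor interaction, passed for 4 of the 8, where 1.41% of the 13563 tested genes passed in the negative direction. The interaction was -1.50 ± 0.35 for Cd74 (adjusted p = 0.0471), -1.32 ± 0.30 for H2-Aa (adjusted p = 0.0443), -1.26 ± 0.30 for H2-DMb2 (adjusted p = 0.0471) and -1.06 ± 0.25 for Ciita (adjusted p = 0.0480). All 8 estimates were negative, from -1.50 to -0.86, and the remaining 4 had adjusted p of 0.0589 to 0.0885. Without the library labelled WT b all 8 passed, a count for which the share of all tested genes is not given here. Leaving out any 1 of 12 other libraries (all except WT a and icKO d with vehicle) left 0. With a sex term 0 of the 8 passed, at a median of -1.06, and 0 passed with no filter, with the closest pairs averaged or with any of the marker scores. These comparisons share groups: vehicle WT enters the genotype effect with vehicle and the inhibitor effect in WT, and inhibitor-treated WT enters the inhibitor effect in WT and the genotype effect with inhibitor.

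**Figure D2:**
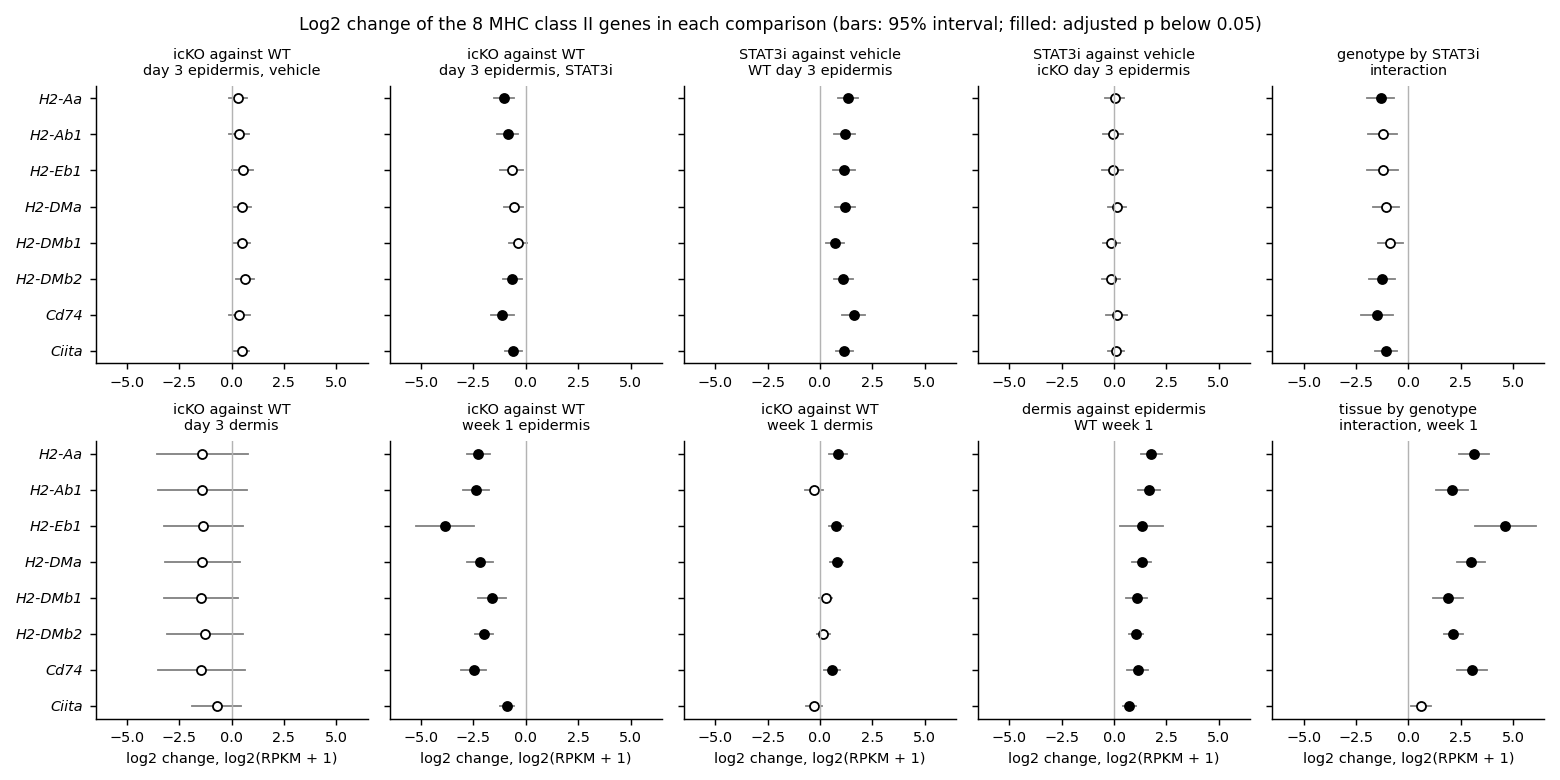
Log2 change of each class II gene (x axis, log2(RPKM + 1) scale) in the 10 comparisons, with 95% intervals as bars and filled points for adjusted p below 0.05. In WT day 3 epidermis all 8 points for STAT3i are filled and lie at 0.72 to 1.62, and in week 1 epidermis all 8 points for icKO lie at -3.87 to -0.89.

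The pattern followed markers of dendritic cells and macrophages from library to library, and Langerhans cell markers less closely. Over the 15 day 3 epidermis libraries the mean log2 level of the 8 genes had a Pearson correlation of 0.96 (Spearman 0.98) with the mean of 12 conventional dendritic cell markers, 0.86 (0.79) with 20 macrophage markers and 0.61 (0.55) with 7 Langerhans cell markers. As deviations from the group means these were 0.94, 0.78 and 0.43, and without the 2 libraries farthest from the median of each marker score they were 0.99, 0.84 and 0.42. For Cd207, the gene of langerin and 1 of the 7 Langerhans cell markers, the correlation was 0.58 pooled and 0.24 within groups. The pooled correlation was 0.45 for B cell markers, 0.34 for T cell markers, 0.44 for fibroblast markers, 0.010 for skeletal muscle markers and -0.35 for keratinocyte markers. Within groups these were 0.41, 0.29, 0.26, 0.44 and -0.37. The within-group value for Langerhans cell markers (0.43) was thus no higher than that for skeletal muscle markers. All these scores come from the same libraries and share their depth and composition, and a marker score can itself contain genes of several cell types.

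Macrophage and dendritic cell markers moved with the class II genes between groups, and the Langerhans list did so less evenly. The summed macrophage marker RPKM was 2315, 2623, 513 and 553 in vehicle WT libraries a to d, 1801 to 2210 in vehicle icKO, 2948 to 3568 in WT with inhibitor and 1831 to 2203 in icKO with inhibitor. Libraries WT c and d were low for these markers as for class II genes. Dendritic cell markers summed to 80.6 to 386 RPKM in vehicle WT, 250 to 320 in vehicle icKO, 482 to 528 in WT with inhibitor and 232 to 309 in icKO with inhibitor. Among WT libraries, 7 of the 10 tested dendritic cell genes rose with the inhibitor, among them Mgl2 (1.93 ± 0.37), Cd209a (1.57) and Irf8 (1.38), and 16 of 20 macrophage genes rose, among them Cd68 (1.89) and Csf1r (1.63). Langerhans markers summed to 135 to 169 RPKM in vehicle WT, 165 to 228 in vehicle icKO, 187 to 198 in WT with inhibitor and 192 to 240 in icKO with inhibitor, so the genotypes overlapped with the inhibitor. Cd207 itself was at 15.2, 15.3, 18.7 and 14.3 RPKM in vehicle WT, 13.9, 14.1, 16.2 and 16.2 in vehicle icKO, 25, 22.4 and 24 in WT with inhibitor and 18.6, 11.9, 9.48 and 18.4 in icKO with inhibitor. The library labelled WT b, high for class II genes, was thus not high for Cd207. Of the 6 tested Langerhans genes, Cd207 rose by 0.56, Itgax by 0.88 and Mfge8 by 0.64. In icKO with inhibitor against WT with inhibitor, 3 of 10 dendritic cell genes fell, among them Cd209a (fell by 1.12) and Flt3 (fell by 0.93), and 2 of 20 macrophage genes fell. Of the 6 Langerhans genes Cd207 fell by 0.72 and Epcam rose by 0.48, with a list median of 0.15. B cell markers summed to 2.83 RPKM at most, and none of the 7 passed the filter in any comparison. In no library of this table was any dendritic cell, macrophage or Langerhans marker at 0. When the macrophage score was added to the model, 1 of 8 class II genes passed for the inhibitor in WT, and with the Langerhans score or the dendritic cell score 0 passed; the dendritic cell score was added after the data were seen. With these scores the medians were 0.68, 0.82 and 0.36, and genes of each list themselves rose with the inhibitor. The share of all tested genes that passed in these fits is not given here. Whether the loss of calls is particular to the class II genes was not tested.

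**Figure D3:**
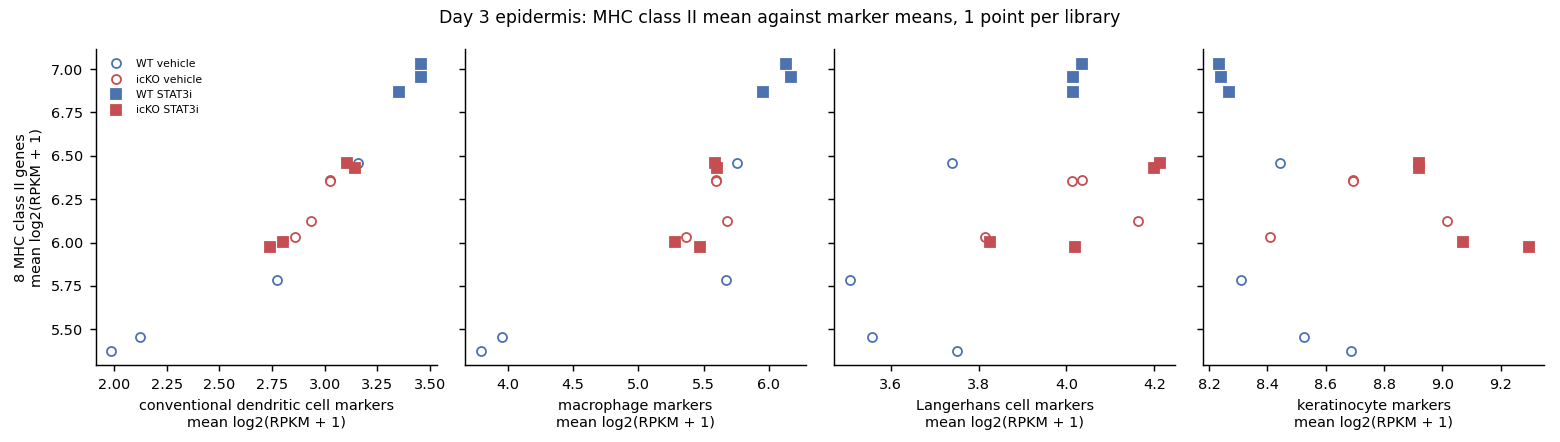
Mean log2(RPKM + 1) of the 8 class II genes (y axis) against the mean of the dendritic cell, macrophage, Langerhans cell and keratinocyte markers (x axes) in the 15 day 3 epidermis libraries; open circles are vehicle, filled squares STAT3i, blue WT and red icKO. The points lie closest to a line for dendritic cell markers (Pearson 0.96) and scatter more for Langerhans cell markers (0.61).

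The genes most like the class II genes over these 15 libraries, among 13555 ranked by Pearson correlation with their mean, were Rasgrp4 (0.98), Tmem176b (0.97), Gpsm3 (0.97), Slc25a45 (0.97), Usp35 (0.97), Gnai2 (0.96), Tmem176a (0.96) and Fxyd5 (0.96). Within groups their correlations were 0.90 to 0.98. Their mean levels ranged from 1.69 RPKM for Usp35 to 160 RPKM for Gnai2.

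Other genes of the class II pathway moved in part. With the inhibitor in WT, 11 of the 29 tested genes of a 31-gene list rose and 0 fell. They included the lysosomal protease Ctss, which trims the invariant chain (1.49, adjusted p = 0.0267), the asparaginyl endopeptidase Lgmn (1.13), the thiol reductase Ifi30 (0.90), the costimulatory genes Cd86 (1.04) and Cd40 (0.72), March1, a ubiquitin ligase that removes class II molecules from the surface (0.86), and the H2-O chains H2-Oa (0.92) and H2-Ob (0.94). The RFX subunits Rfx5, Rfxap and Rfxank did not pass. Between icKO and WT with inhibitor, H2-Ob fell by 1.22, H2-Oa fell by 1.13, March1 fell by 0.84 and H2-Ea-ps and the interferon gamma receptor gene Ifngr1 also fell, while Ctsl (0.63), Ctsd (0.62), Prdm1 (0.50) and Nfyb (0.33) were among the genes that rose. With vehicle, 4 of 29 rose in icKO, the proteases Ctsl (0.56) and Ctsd (0.59), Cd80 (0.57) and Ifngr2 (0.39), and 0 fell. Of all tested genes 12.8% were called in either direction, and the share called higher alone is not given here. Ifng itself was at 0.216 RPKM or less in every day 3 epidermis library.

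Class I genes, which present cytosolic peptides to CD8+ T cells and answer to the related activator Nlrc5, had few calls in day 3 epidermis. Of 11, H2-D1 alone rose with the inhibitor in WT, by 0.43, Nlrc5 alone rose in icKO with inhibitor, by 0.36, and 0 passed between the genotypes with vehicle. Over the 15 libraries the class I mean had a correlation of 0.41 with the class II mean, and of 0.52 within groups.

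In day 3 dermis the class II genes split the libraries labelled icKO. H2-Aa was at 986, 445 and 1455 RPKM in the libraries labelled WT a to c and at 139, 197 and 1219 in those labelled icKO. Cd74 was at 2136, 1055 and 3361 RPKM in WT and at 323, 462 and 2530 in icKO, and H2-Ab1 at 760, 349 and 1033 against 105, 154 and 917. Libraries icKO a and b, the ones with high Dlx3, were lowest for each of the 8 genes, and icKO c lay within the WT range. Ciita was at 3.59, 1.67 and 5.27 RPKM in WT and at 0.880, 0.924 and 3.83 in icKO. H2-Eb1 was at 20.1, 9.78 and 30.8 RPKM against 2.99, 3.59 and 22.9, and H2-DMa at 62.0, 35.4 and 94.2 against 10.4, 14.2 and 67.0. The beta chain genes were at 57.1, 31.5 and 74.1 against 7.69, 13 and 55.4 RPKM for H2-DMb1 and at 66.1, 26.4 and 82.8 against 11, 13.2 and 62.8 RPKM for H2-DMb2. The WT library with the lowest values was b throughout, and it still lay above icKO a and b. With limma 0 of 8 passed, and 0% of the 13017 tested genes passed, the smallest adjusted p over all genes being 0.315. At an unadjusted p below 0.05 there were 0 of the 8 and 12.6% of all tested genes. The estimate for H2-Aa was -1.41 ± 0.89 (95% interval -3.59 to 0.76) and for Cd74 -1.44 ± 0.85 (-3.51 to 0.63), so these 6 libraries leave room for a change of several log2 units. Without the library labelled icKO c, 7 of 8 passed as lower, with a median of -2.21, and 23.8% of all tested genes passed in either direction.

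Markers moved with the same libraries. Summed macrophage markers were 466 and 710 RPKM in the libraries labelled icKO a and b and 2976 in icKO c, against 1564 to 3463 in those labelled WT. Dendritic cell markers were 53.2, 82.3 and 292 RPKM against 294, 220.7 and 559, and Cd207 was 3.92, 5.61 and 17.2 against 13.5 to 27.1. Class I genes summed to 1706 and 1716 RPKM in icKO a and b and 3102 to 6725 in the other 4, with H2-K1 at 295 and 263 RPKM in icKO a and b and at 511 to 1245 in the other 4. The part of cell composition in these differences was not tested.

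At week 1 class II transcripts were far lower in icKO than in WT epidermis. H2-Aa fell from 211 and 166 RPKM in WT to 43.3 and 33.6 in icKO, and H2-Eb1 from 64.8 and 50.5 to 1.30 and 5.91. All 8 genes fell, with log2 changes from -3.87 to -0.89. In this comparison 43.6% of the 11796 tested genes were called lower and the median over all tested genes was -0.50, so a fall was common, whereas the median of the 8 was -2.23.

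H2-Ab1 was at 149 and 113 RPKM in WT and at 29 and 20.4 in icKO, a fall of 2.37 ± 0.24 (adjusted p = 0.00291). Cd74 was at 380 and 275 RPKM against 64.8 and 50.3, and it fell by 2.48 ± 0.23 (adjusted p = 0.00258). For H2-Aa the change was -2.26 ± 0.21 (adjusted p = 0.00258). H2-Eb1 changed most, by -3.87 ± 0.53 (adjusted p = 0.00486), and its icKO libraries differed from each other by more than those of any other chain. H2-DMa was at 14.9 and 11 RPKM against 2.50 and 1.61, H2-DMb1 at 12.5 and 8.73 against 3.39 and 2.15, and H2-DMb2 at 10.6 and 9.36 against 1.91 and 1.62. These H2-DM chains fell by 2.19 ± 0.24, 1.62 ± 0.27 and 1.99 ± 0.17, with adjusted p of 0.00325, 0.00725 and 0.00235. Ciita was at 1.22 and 1.09 RPKM in WT and at 0.231 and 0.101 in icKO, and it fell by 0.89 ± 0.13 (adjusted p = 0.00551), a value that the pseudocount of 1 compresses at such low levels. The groups overlapped for none of the 8, as for 60.6% of tested genes in that direction. The calls rest on 2 libraries a side. Leaving out either WT library leaves 1 control, and the medians of the 8 genes were then -2.04 and -2.42.

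The Langerhans cell genes fell with them. Cd207 was at 48.3 and 39.3 RPKM in WT and at 2.28 and 0.395 in icKO, and it fell by 4.38 on the log2 scale (adjusted p = 0.00275). H2-M2 fell by 3.10, and 5 of the 6 tested Langerhans genes fell in all, the others being Ltc4s (2.36 lower), Epcam and Mfge8. Dendritic cell markers were low in both groups, at 18.2 and 21.7 RPKM summed in WT and 5.54 and 13.4 in icKO, and of the 3 tested, Cd83 fell by 2.87 and Clec10a rose by 1.71. Macrophage markers went the other way: they summed to 65.5 and 69.4 RPKM in WT and to 173 and 547 in icKO, and 10 of 16 tested rose, among them Lyz2 (4.02) and C1qb (3.92), while Mertk fell by 1.31. Of 5 tested fibroblast genes 3 fell and 1 rose, with a median of -2.03. Among 6 keratinocyte genes Krt10 (fell by 4.46) and Trp63 (fell by 1.06) fell and Krt14 rose by 2.02. T cell genes fell as well, 4 of 5 tested, among them Cd3e by 2.15. The part of cell composition in the fall of the class II genes was not tested.

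Of the 24 tested pathway genes, 11 fell and 2 rose in week 1 icKO epidermis, a share of falls near the 43.6% of all tested genes called lower. H2-Ea-ps fell by 2.88, Ifngr1 fell by 2.22, Nfya fell by 1.26, Irf1 fell by 1.02, Rfx5 fell by 0.97 and Rfxank fell by 0.75. Ctss rose by 2.21 and Jak2 by 0.53. Among 11 class I genes, Nlrc5 fell by 2.03, Tap1 fell by 1.66, Tap2 fell by 1.40 and Tapbp fell by 1.08, Psmb10 rose by 0.79, and the presenting chains H2-K1 and H2-D1 and the light chain B2m did not pass.

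In week 1 dermis the classical genes parted from one another. H2-Aa was at 765 and 543 RPKM in WT and at 1243 and 1116 in icKO, and it rose by 0.87 ± 0.18 (adjusted p = 0.00927). H2-Eb1 was at 157 and 132 RPKM against 255 and 235, a rise of 0.76 ± 0.14 (adjusted p = 0.00599). H2-DMa was at 32.4 and 34.4 RPKM against 61.8 and 56.3 and rose by 0.80 ± 0.13 (adjusted p = 0.00437). Cd74 rose by 0.57 ± 0.16 (adjusted p = 0.0257), from 771 and 644 RPKM to 1178 and 932. Under quantile normalization H2-Aa (0.54, adjusted p = 0.123) and Cd74 (0.080, adjusted p = 0.708) did not pass. Cd74 also did not pass without WT b (0.44) or without icKO a (0.40). These 4 of 8 genes rose where 8.41% of the 12744 tested genes were called higher and the median of all tested genes was -0.38. H2-Ab1, the partner chain of H2-Aa, did not follow: WT held 481 and 360 RPKM and icKO 377 and 313, an estimate of -0.27 ± 0.18 (95% interval -0.70 to 0.15, adjusted p = 0.235). Ciita was at 2.65 and 2.51 RPKM against 2.25 and 1.68, with an estimate of -0.28 (-0.67 to 0.11) that became 0.15 under quantile normalization, and H2-DMb1 (24.1 and 22 RPKM against 28.4 and 27.4) and H2-DMb2 (21.8 and 21.1 against 23.9 and 24.3) had estimates of 0.27 (-0.05 to 0.59) and 0.16 (-0.15 to 0.47). When all 8 week 1 libraries shared 1 fit, or with no filter, 2 of the 8 passed.

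The ratio within a library shows the same divergence free of library scale. The RPKM of H2-Aa divided by that of H2-Ab1 was 3.30 and 3.56 in icKO week 1 dermis and 1.42 to 1.65 in the other 6 week 1 libraries, while the 21 day 3 libraries lay between 1.21 and 1.52. In icKO week 1 dermis 7 of 11 class I genes fell, among them H2-K1 by 1.33, H2-D1 by 1.02, Tap1 by 1.51 and Tap2 by 1.72, and all 6 keratinocyte genes fell, with changes from -2.46 to -1.44. Macrophage genes rose in 11 of 20, among them Ms4a7 (1.21) and Cd68 (1.16), with summed RPKM of 1625 and 1809 in WT and 2594 and 2898 in icKO. Of 8 tested dendritic cell genes 0 rose and Cd83 fell by 0.61, and their summed RPKM was 201 and 216 in WT and 230 and 236 in icKO. Of the 28 tested pathway genes, 3 rose, Ifi30 (1.27), March1 (1.19) and Ctss (0.43), and 8 fell, among them Ctsd (1.11 lower), Irf1 (0.96 lower) and Rfx5 (0.84 lower).

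**Figure D4:**
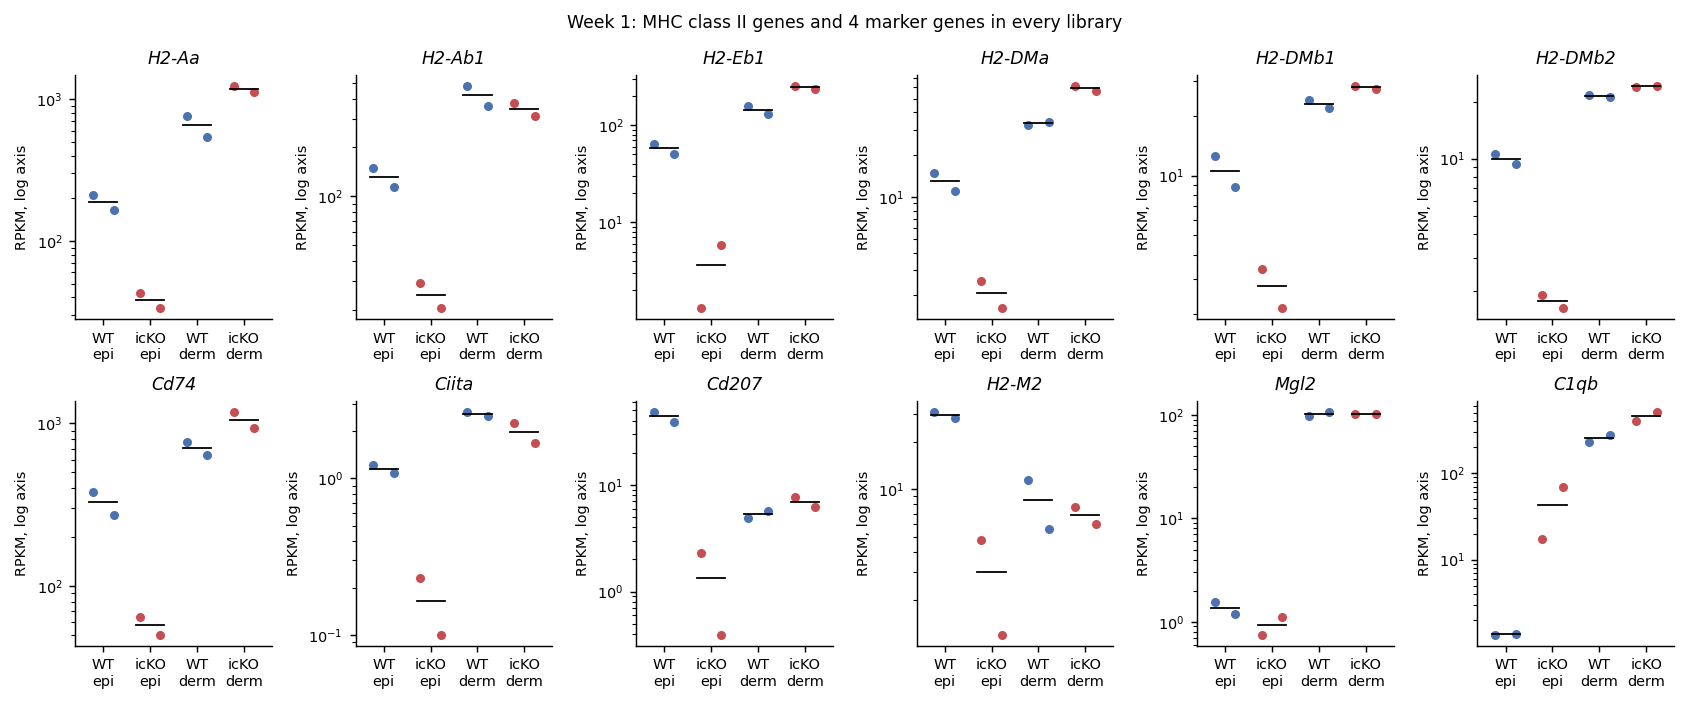
RPKM on a log axis of the 8 class II genes and of Cd207, H2-M2, Mgl2 and C1qb in the 8 week 1 libraries; points are libraries (blue WT, red icKO) and lines group means. In epidermis the class II genes and Cd207 are lower in icKO (H2-Aa 43.3 and 33.6 against 211 and 166) and C1qb is higher, and in dermis H2-Aa is higher in icKO (1243 and 1116 against 765 and 543).

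Dermis held more class II transcript than epidermis in WT skin at week 1, where tissue and the route of tamoxifen cannot be told apart. All 8 genes were higher in dermis, by 0.73 (Ciita) to 1.78 (H2-Aa), where 33.9% of the 13108 tested genes were called higher. The median was 1.22, against 0.074 over all tested genes. Adjusted p ranged from 0.000282 for H2-Aa to 0.0329 for H2-Eb1. With a pseudocount of 0.1 H2-Eb1 did not pass (adjusted p = 0.0815), nor did Ciita under quantile normalization (0.30, adjusted p = 0.0791). Cd207 was lower in dermis by 2.82 on the log2 scale. Of the 6 tested Langerhans genes 3 were called lower in dermis, 1 was called higher and 2 did not pass. In the other lists 18 of 20 macrophage genes and 6 of 7 tested dendritic cell genes were higher in dermis. The icKO effect differed between the tissues: the tissue by genotype interaction passed for 7 of 8, where 17.2% of the 13539 tested genes passed in the positive direction. It was 4.63 ± 0.63 for H2-Eb1 (adjusted p = 0.00281), 3.13 ± 0.30 for H2-Aa (adjusted p = 0.000992), 3.05 ± 0.31 for Cd74 (adjusted p = 0.00108) and 0.61 ± 0.20 for Ciita, which did not pass (adjusted p = 0.0507). The Ciita estimate passed at 1.89 with a pseudocount of 0.1, at 0.83 under quantile normalization and at 0.69 without icKO a of epidermis.

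Transcript entries gave a further readout for Cd74. The transcript tables list the invariant chain as a longer entry with 837 coding bases, which carries an additional exon, and a shorter one with 645. The longer entry took 46.3% and 46.7% of Cd74 RPKM in week 1 WT epidermis and 25.2% and 26.2% in icKO epidermis. In WT dermis it took 26.9% and 29.5%, and in icKO dermis 22.1% and 21.1%. The WT epidermis libraries were thus the highest of the week 1 table and did not overlap with any other group. With 2 libraries a side the exact 2-sided permutation test gave p = 0.333 for each of these 3 differences, the smallest it can give. In day 3 dermis the longer entry took 38.6%, 36.9% and 35.4% in the libraries labelled WT and 34.6%, 34.2% and 35.3% in those labelled icKO (exact permutation p = 0.1, the smallest that 3 against 3 allows). The labels do not say how reads common to both entries were divided.

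**Figure D5:**
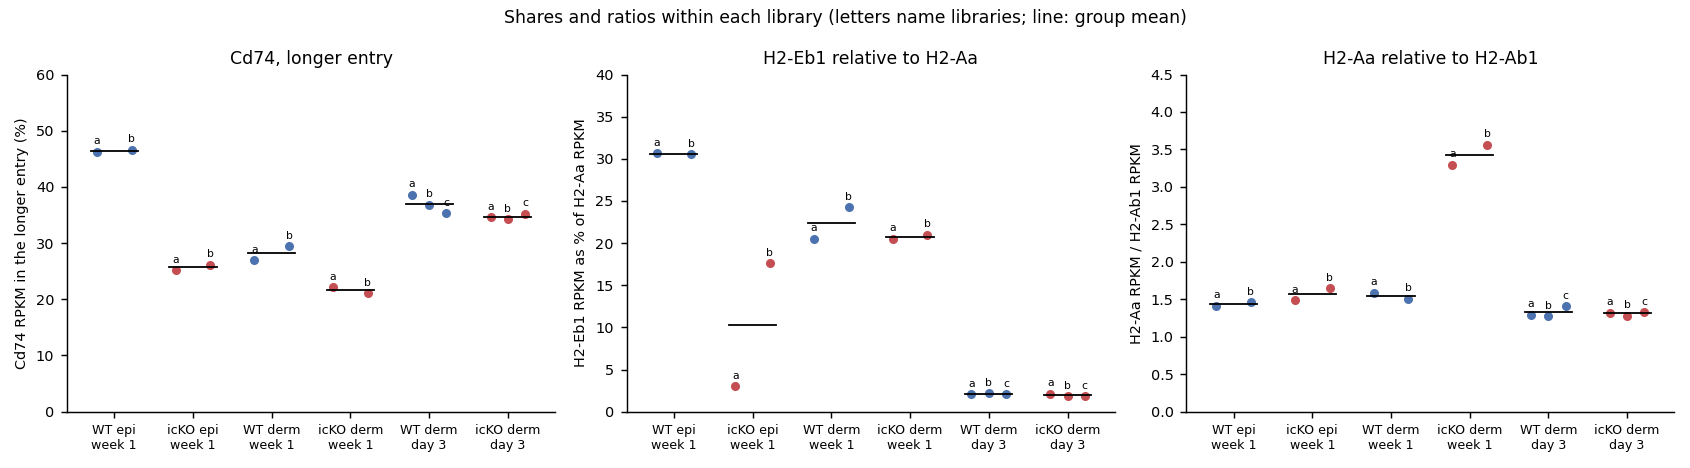
Within-library shares and ratios in the week 1 and day 3 dermis libraries: the share of Cd74 RPKM in the longer entry (left, percent), H2-Eb1 as a percentage of H2-Aa (middle) and H2-Aa divided by H2-Ab1 (right); points are libraries with letters and lines group means. The WT week 1 epidermis stands out for the longer Cd74 entry (46.3% and 46.7%) and the icKO week 1 dermis for H2-Aa over H2-Ab1 (3.30 and 3.56).

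The share of H2-Eb1 relative to H2-Aa also differed by library at week 1. It was 30.5% and 30.7% in WT epidermis, 3.01% and 17.6% in icKO epidermis and 20.5% to 24.3% in the 4 dermis libraries. H2-Ea-ps, annotated as the pseudogene of the alpha chain that pairs with H2-Eb1, stood at 5.95% and 6.24% of H2-Aa in WT epidermis and at 1.31% and 2.23% in icKO epidermis. It was at 0.680% and 0.723% in WT dermis and at 0.291% and 0.365% in icKO dermis. Library icKO a of week 1 epidermis held the lowest H2-Eb1 of all 8 week 1 libraries, at 1.30 RPKM, while its H2-Aa was the higher of the 2 icKO values. Whether the libraries carry different H2 alleles was not tested.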

How the data were processed

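Total RNA from mouse epidermis and dermis was sequenced (NEBNext cDNA, NuGEN libraries, HiSeq), per the labels' protocols. Reads were aligned with TopHat2 2.1.0 to mm10 and quantified in Partek, per the submitters' processing notes. The authors deposited RPKM values, per the file headers, in 3 separately normalized tables, so tests stayed within a table; the tables give no read counts. Exact duplicate rows were dropped (832 in day 3 dermis) and transcript entries were summed per gene. Each comparison used limma 3.58.1 (R 4.3.3) with a mean-variance trend on log2(RPKM + 1), for genes at 1 RPKM or more in as many libraries as the smaller group held. The pseudocount understates changes of low genes. The 4 day 3 epidermis groups shared 1 fit. The procedure was first tested on simulated data. Named genes were the 8 members, the called genes of the lists, and the 8 likest genes by correlation. Members and gene lists were chosen with earlier results of these data known. Alternatives covered the pseudocount, the filter, quantile normalization, the libraries fitted, sex, marker scores and leaving out each library. The values of 1 gene of the class II pathway list are not reported here.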

Additional observations from a re-analysis of the deposited data

Results flagged for a closer look

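In vehicle-treated WT epidermis at day 3, H2-DMa stood at 40.5 RPKM in the library labelled WT b, apart from the other 3 libraries of its group. Dixon's test at the 95% level, which chance passes in about 1 of 20 groups, picked out this value, and the same library held the lowest Dlx3 of its group.

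The inhibitor effect differed between the genotypes at day 3 by the test of the interaction, with limma estimates of -1.32 for H2-Aa, -1.26 for H2-DMb2, -1.50 for Cd74 and -1.06 for Ciita. Sex followed genotype in the inhibitor groups, and with a sex term in the fit over all 15 libraries 0 of the 8 genes passed, at a median of -1.06.

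The icKO effect differed between dermis and epidermis at week 1 by the same kind of test. The estimates were 3.13 for H2-Aa, 2.1 for H2-Ab1, 4.63 for H2-Eb1, 3.00 for H2-DMa, 1.89 for H2-DMb1, 2.15 for H2-DMb2 and 3.05 for Cd74. The tissues also differed in the route of tamoxifen, and tissue and route cannot be told apart.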

How the results depend on the processing

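Of 1030 recomputed values of single genes, 831 kept their direction and side of the threshold, 164 no longer passed, 14 newly passed and 21 changed sign. No paired analysis was possible because the table columns carry no replicate numbers. For icKO against WT with inhibitor, 8 class II genes passed with the compared groups only, 0 with a sex term, and 3 with the macrophage or the dendritic cell score. For the inhibitor in WT, 1 passed with the compared groups only or the macrophage score and 0 with the Langerhans or the dendritic cell score. The interaction had 0 calls with no filter, a sex term, the closest pairs averaged, or any of the 3 scores. In week 1 dermis 2 passed with no filter or with all week 1 libraries in 1 fit. Leaving out 1 library gave 0 to 8 calls for icKO against WT with vehicle, 3 to 7 with inhibitor, 0 to 8 for the interaction and 0 to 7 in day 3 dermis. In week 1 epidermis such a fit leaves 1 library in a group, so its calls are not counted here. For most of these settings the share of all tested genes that passed is not given here. Whether the changes in these counts are particular to the class II genes, and their cause, was not tested.

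Sign changes were small. For icKO against WT with vehicle, H2-Aa became -0.012, -0.050 and -0.14 with the Langerhans, macrophage and dendritic cell scores, Cd74 -0.0063, -0.018 and -0.12 with the same scores, and H2-Ab1 -0.0022 and -0.11 with the macrophage and dendritic cell scores. For the inhibitor in WT, H2-DMb1 became -0.033 with the dendritic cell score. For the inhibitor in icKO, H2-Aa became -0.15 with quantile normalization and -0.028 with the Langerhans score, and H2-Ab1 became 0.0035 with a sex term. Leaving out 1 library there gave -0.045 to 0.098 for H2-Aa, -0.11 to 0.043 for H2-Ab1 and -0.030 to 0.23 for Ciita. In week 1 dermis Ciita became 0.15 with quantile normalization. Read counts are not given, so counting error is unknown, and Ciita at 0.101 to 0.231 RPKM in week 1 icKO epidermis is the value most exposed to it.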

Other observations

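In day 3 dermis 5 transcript entries are listed for Ciita. The most abundant of them took 72.5% of the Ciita RPKM in WT library a and 72.5% in WT library b, against 59.0% in WT library c, and the shares of the other entries were also nearly equal in a and b. The split of Ciita by entry was not used.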
